A study of Drosophila melanogaster with 2 samples.

Results

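The 33 genes described here form a list of segmentation transcription factor genes of Drosophila melanogaster and genes related to them. The list holds gap, head gap, pair rule and segment-level genes, the odd family (sob, drm and bowl), and early and POU genes. Membership does not mean that a gene itself divides the embryo into segments, and segmentation genes below means the whole list. The genes were taken by name from the dm6 gene annotation, and all 33 were matched among 13945 protein-coding genes of the chromosome arms. Binding of the homeodomain protein CG15696 was measured by ChIP-seq, the sequencing of DNA recovered with a protein, in whole embryos of mixed sex aged 2 to 8 h. The flies stably carried a transgene for CG15696 fused at its C-terminus to green fluorescent protein (GFP), and an anti-GFP antibody was used. Both libraries, biological replicates 1 and 3, belong to this 1 group, so there was no comparison between conditions. The promoter that drives the transgene is not given in the sources used here, and whole embryos hold every tissue, so binding in few cells and weak binding in many cannot be told apart.

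Segmentation runs as a cascade. Maternal gradients set the domains of the gap genes, the gap factors place the stripes of the pair rule genes, and the pair rule factors set up stripes of segment-level genes such as en in every segment. Many of these genes are small, and their expression is controlled by separate enhancers spread upstream and downstream of the transcribed part. Most of the factors bind DNA through homeodomains, zinc fingers, forkhead, Runt, T-box, Sox or POU domains.

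A site is a peak of the authors' IDR list, named for the irreproducible discovery rate, a measure of rank agreement between replicates. Its 5354 sites are the top, by signal, of the pooled list called on both replicates together, and rank 1 is the strongest. A single site therefore need not rank alike in both replicates. Each peak carries the authors' signal value, which is theirs, has no stated scale, and serves only to rank and describe. A gene was counted as having a site when a peak summit fell between its annotated ends or at most 10 kb outside them. The strongest sites of the tiers are shown first, since the description turns on them. Each line gives the 101 bases centred on a summit, on the plus strand of the Release 6 genome from RefSeq. Capitals mark the letters TAAT on either strand, the core of many homeodomain motifs.
kni (gap), chr3L:20687559-20687659: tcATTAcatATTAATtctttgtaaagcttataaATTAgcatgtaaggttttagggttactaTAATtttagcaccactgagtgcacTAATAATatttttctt
btd (head gap), chrX:9687699-9687799: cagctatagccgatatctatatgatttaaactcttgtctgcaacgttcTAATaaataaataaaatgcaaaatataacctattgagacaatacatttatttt
slp1 and slp2 (pair rule), strongest, chr2L:3827825-3827925: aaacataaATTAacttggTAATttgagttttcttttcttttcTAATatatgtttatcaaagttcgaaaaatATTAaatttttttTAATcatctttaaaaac
slp1 and slp2 (pair rule), next, chr2L:3832468-3832568: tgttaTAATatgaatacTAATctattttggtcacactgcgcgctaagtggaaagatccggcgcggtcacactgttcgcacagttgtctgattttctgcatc
mid (segment level), chr2L:5476805-5476905: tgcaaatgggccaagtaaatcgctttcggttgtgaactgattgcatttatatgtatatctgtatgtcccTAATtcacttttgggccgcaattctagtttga
bowl (odd family), chr2L:3776743-3776843: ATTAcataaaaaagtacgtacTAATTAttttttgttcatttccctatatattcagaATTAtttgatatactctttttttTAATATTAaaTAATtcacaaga
sob (odd family), chr2L:3588482-3588582: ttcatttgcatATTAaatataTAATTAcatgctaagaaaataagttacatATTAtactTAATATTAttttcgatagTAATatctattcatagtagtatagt
cad (early factor), chr2L:20780905-20781005: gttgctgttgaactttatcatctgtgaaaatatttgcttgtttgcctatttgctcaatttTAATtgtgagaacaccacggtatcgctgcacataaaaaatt

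These windows differed widely in composition. The strongest window, between slp1 and slp2, had a GC content of 16.8% and 5 separate runs of TAAT letters. The windows in bowl and next to sob, both at 17.8% GC, also held 5 runs each and both contained TAATTA. The second slp1 and slp2 window had 43.6% GC and 2 runs. The windows of btd, mid and cad held 1 run each. A TAAT core lay within 50 bp of 60 of the 74 summits described here (81.1%, 95% Wilson interval 70.7 to 88.4%) and of 77.7% of all IDR summits, so its presence does not set these sites apart.

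The share of segmentation factor genes with a site depended on the distance allowed. Of the 33 genes, 23 (69.7%, 95% Wilson interval 52.7 to 82.6%) held an IDR site by this rule, against 64.7% of all protein-coding genes. With a limit of 5 kb the count was 21 of 33, against 50.8%, and with 2 kb it was 14 of 33 (42.4%), against 37.2%. Only 5 (15.2%) had a site within 500 bp of one of their own transcription start sites (TSSs), against 21.4%. Sites in numbers were more frequent, as 20 of 33 (60.6%) had 2 or more, against 39.4%. These 20 include drm, sob, odd, bowl, slp1 and slp2, which lie on one stretch of 2L. Member bodies were also longer, with a median of 4205 bp against 2166 bp over all genes, which widens the sequence counted. A site among the first 1000 was held by 11 of 33 (33.3%), against 22.2%. Intervals here and below cover counting error only, and no test was made of a list whose genes share sites and neighbourhoods.

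The neighbourhoods of these genes were poor in other genes. Within 10 kb, the median number of other protein-coding genes with a TSS was 1, against 5 over all genes. For 16 of the 33 genes there was none, as for 4.65% of all genes. The TSS of 24 members (72.7%) was the nearest to some IDR summit, against 23.9% of all genes, and 71 sites were assigned in this way. Of these 71 sites, 20 lay more than 10 kb from the body of the member, and the farthest was 27989 bp from its TSS.

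Most sites near the segmentation genes lay away from promoters. The territories of the 33 genes, each the body with 10 kb on either side, joined to 0.967 Mb and held 74 sites. Of these, 63 (85.1%, 95% Wilson interval 75.3 to 91.5%) were more than 500 bp from any protein-coding TSS and are called distal. Another 6 were at the promoter of a member and 5 at the promoter of another gene. Among the latter, the peaks of rank 2355 and 4822 at nej overlap and were counted as separate sites. The promoter share was thus 14.9% (8.51 to 24.7%), against 41.9% (40.6 to 43.3%) over all IDR sites. Among the first 1000 sites, 1 of the 14 near members was at a promoter, against 45.6% of all. By annotation, 47 summits were intergenic, 21 intronic, 4 in a non-coding gene and 2 in a 5' UTR. Relative to the genes, 29 of 77 pairs of gene and site lay upstream, 16 in the body and 32 downstream.

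The density of sites near TSSs was close to that of the genome, and the density elsewhere was higher. Sequence within 500 bp of a TSS made up 8.78% of the territories and 11.5% of the arms. It held 130 sites per Mb in the territories (exact Poisson 95% interval 64.7 to 232) and 146 on the arms. The remaining sequence held 71.4 distal sites per Mb in the territories (54.9 to 91.4) and 26.2 on the arms (25.3 to 27.2). A stretch of 2L with 6 of the genes supplied much of this difference. Without these 6 genes the distal density was 46.3 per Mb (32.2 to 64.3), and the promoter share of sites was 20.5%. The pooled list of 30000 peaks, called on both replicates together, was also denser here, with 404 peaks per Mb against 224 on the arms.

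**Figure D1:**
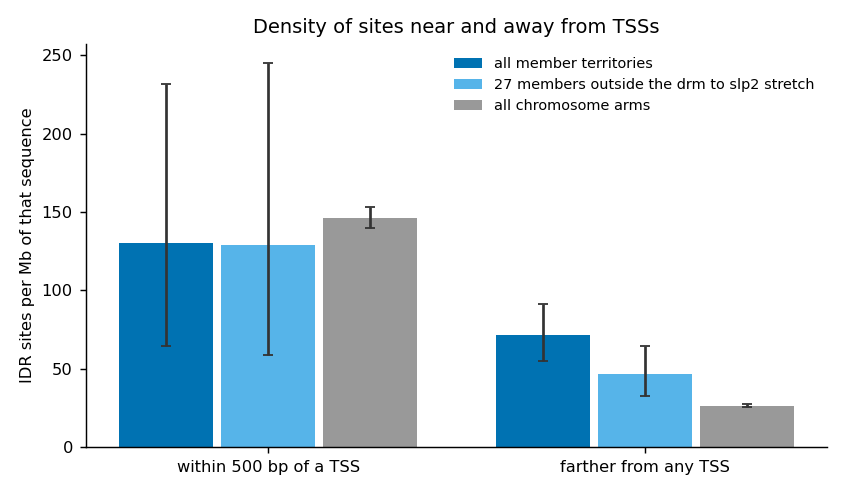
IDR sites per Mb of sequence within 500 bp of a protein-coding TSS (left) and of all other sequence (right), in the territories of all 33 genes, of the 27 genes outside the drm to slp2 stretch, and on all chromosome arms. Near TSSs the bars stand at 130, 129 and 146 per Mb, and away from TSSs at 71.4, 46.3 and 26.2, with exact Poisson 95% intervals as error bars.

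The tiers differed in how many of their genes had a site. All 4 head gap genes, all 3 genes of the odd family and 8 of 9 pair rule genes had one within 10 kb. So did 3 of the 4 early and POU genes (75.0%), where the share over all protein-coding genes was 64.7%. Of the 7 gap genes 3 had one, and of the 6 segment-level genes 2. With so few genes the 95% Wilson interval of every tier includes 64.7%, at 56.5 to 98.0% for pair rule genes and 15.8 to 75.0% for gap genes. Sites among the first 1000 were found at 3 of 4 head gap genes, 3 of 3 odd family genes, 2 of 4 early and POU genes, 2 of 9 pair rule genes and 1 of 6 segment-level genes, and at none of the 7 gap genes. Read against the 22.2% of all genes that hold such a site, the 2 pair rule genes (22.2%) and the 1 segment-level gene (16.7%) are at or below the background. These 2 pair rule genes are the neighbours slp1 and slp2, which were counted through the same sites.

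**Figure D2:**
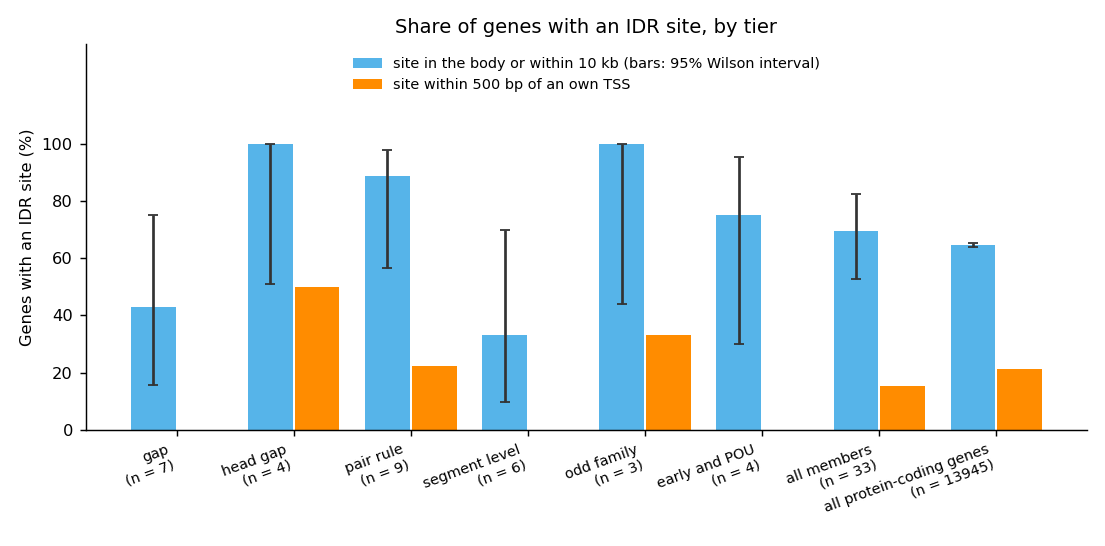
Percentage of genes with an IDR site in the body or within 10 kb (blue, with 95% Wilson intervals) and within 500 bp of an own TSS (orange), for each tier, all 33 members and all 13945 protein-coding genes. The blue bars of the gap (42.9%) and segment-level (33.3%) tiers are the lowest, and the orange bar is 0 for the gap, segment-level and early and POU tiers.

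Among the gap genes, sites lay at hb, kni and knrl, and all were distal. kni, which encodes a nuclear receptor-like repressor of the abdomen, had 3 sites. Its strongest, of rank 1161 (signal 522), was 6947 bp from the TSS on the downstream side, with signal 208 in replicate 1 and 306 in replicate 3. The other kni sites ranked 4971 and 5184, near the end of the list. knrl, the paralog of kni, had a site of rank 2486 upstream, 3087 bp from its TSS, and one of rank 3403 in an intron. The summit window of the former had 12.9% GC, the lowest of all 74. In the 71.7 kb between the bodies of knrl and kni lay 8 sites, the strongest of rank 976. hb, the zinc finger gene of the anterior gap domain, had a site of rank 1818 on its downstream side whose nearest TSS is that of CG44227. Its other site, of rank 3316 and 7085 bp upstream, differed between the replicates, with signal 158 in replicate 1 and 44.7 in replicate 3.

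The head gap genes held stronger sites. btd, an Sp-family zinc finger gene, had the strongest of them, of rank 273 (signal 1232), on X from 9687513 to 9687960. It was 6437 bp upstream of btd but 683 bp from the TSS of nej, the gene of the CBP co-activator, which was the nearest TSS to all 4 btd sites. Both replicates held this peak, with signal 455 (rank 259) in replicate 1 and 773 (rank 305) in replicate 3. A second btd site, of rank 711, lay 4866 bp upstream and contained TAATTA. oc, the homeodomain gene of head development also called orthodenticle, had 4 sites and was the gene of the nearest TSS for each. The strongest ranked 484 (signal 901), 6076 bp upstream, with signal 283 in replicate 1 and 620 in replicate 3. Another oc site, of rank 2763, lay 305 bp from the TSS. ems, a head homeodomain gene, had 1 site within 10 kb, of rank 3594 and 3287 bp upstream. Farther out, a site of rank 691 was 13997 bp from the TSS of ems, which was the nearest. cnc, a bZIP gene of the mandibular segment, had 6 sites, and 2 of them (ranks 3471 and 4517) lay at its own TSSs. Its strongest, of rank 841, was 9934 bp past the gene's end with CG46310 as the nearest TSS.

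The pair rule tier ranged from one of the strongest sites of the whole list to sites at its very end. slp1 and slp2, which encode paired forkhead factors, are 9.74 kb apart, and 3 sites lay between them. The strongest ranked 32 of 5354 (signal 3045), on 2L from 3827647 to 3828099, 776 bp past the end of slp1 and 8965 bp upstream of slp2. It ranked 35 in replicate 1 (signal 1040) and 34 in replicate 3 (signal 2024), so both libraries place it alike. The second ranked 128 (signal 1761), with signal 670 and 1094 in replicates 1 and 3, and was 4322 bp upstream of slp2. At the TSS of slp1 itself, 40 bp away, the site ranked only 5024 (signal 143).

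The other pair rule genes had weaker sites within 10 kb. odd, the zinc finger gene that names its family, had 4 sites within 10 kb, all downstream, the strongest of rank 1697 with signal 141 in replicate 1 and 243 in replicate 3. opa, a Zic-family zinc finger gene, had 4 sites from rank 2921 to 5311, with 2 of them in its intron. ftz, a homeodomain gene inside the Antennapedia complex, had sites of rank 2966 downstream and 4039 upstream, the latter nearer to the TSS of the Hox gene Scr. Farther out, a site of rank 726 (signal 715) was 17490 bp from the TSS of ftz, which was the nearest. hry, a bHLH repressor gene also called hairy, had a site of rank 3292 upstream and one of rank 5201 in its 5' UTR, 59 bp from the TSS. The second had no partner in replicate 1 and signal 85.5 in replicate 3. eve, a homeodomain gene, had 2 sites, each at the promoter of a neighbour. They lay at CG12134 (rank 3575) and at TER94 (rank 5327), 8065 bp and 8241 bp outside the eve body. run, which encodes the founding Runt domain protein, had 1 site, of rank 4753. It had signal 48.2 in replicate 1 and no partner within 100 bp in replicate 3. prd, a paired and homeodomain gene, had none.

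Segment-level genes were mostly without sites. Only inv and mid had sites within 10 kb. mid, a T-box gene, had a site of rank 730 (signal 712) on the downstream side, 15216 bp from its TSS, with signal 259 in replicate 1 and 450 in replicate 3. Its second site ranked 4466. H15, the paralog of mid, had none within 10 kb, but the 45.0 kb between them held 5 sites, the strongest of rank 2973. inv, the paralog of en, had 3 sites, the strongest of rank 2153 in its long intron with signal 73.2 in replicate 1 and 232 in replicate 3. The en territory held no site. Its TSS was nonetheless the nearest to 4 sites lying 13050 to 25382 bp away, the strongest of rank 1606 (signal 401). gsb and gsb-n, paired and homeodomain genes that lie 9.63 kb apart, had no IDR site and no peak of the pooled list between them.

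**Figure D3:**
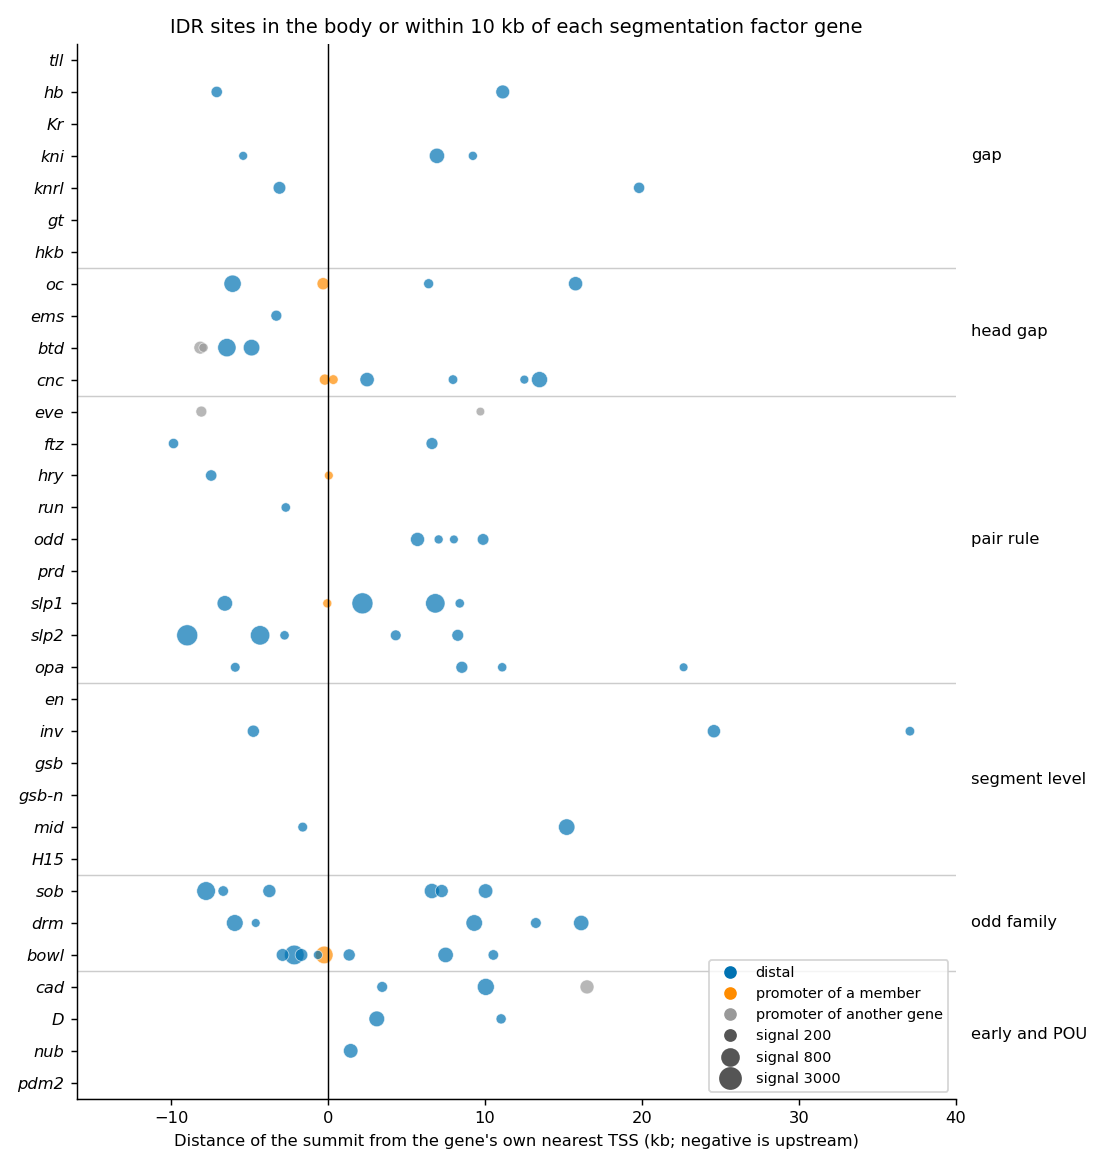
Each row is a gene, and each point a site placed by the distance of its summit from the gene's own nearest TSS in kb, with the gene read from left to right. Area grows with the authors' signal, and colour gives the position class. Most points lie away from 0, the 6 at a member's promoter are in orange, and 10 rows are empty.

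The odd family genes all had several sites. bowl, a zinc finger gene of this family that acts in the hindgut and joints, had 8 sites, the most of any member. The strongest ranked 103 (signal 1860), on 2L from 3776556 to 3777201, in an intron 2145 bp from a TSS, with signal 552 in replicate 1 and 1299 in replicate 3. The bowl promoter held the site of rank 408 (signal 1000), 234 bp from the TSS, with signal 388 and 613 in replicates 1 and 3. It was the only site at a member's own TSS in the first 2677 ranks of the list. The bowl sites of rank 1104 and 3900 had bark as the gene of the nearest TSS. sob had 6 sites, the strongest of rank 220 (signal 1377), 7763 bp upstream, with signal 506 in replicate 1 and 860 in replicate 3. The sob sites of rank 1207, 1493 and 2271 were nearest to the TSS of CG43815. drm, whose product is a small zinc finger protein, had 5 sites, 2 of them of rank 655 (signal 768) and 708 (signal 725). The former lay nearer to the TSS of IFT57, an intraflagellar transport gene, and the latter 633 bp past the end of drm.

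The odd family and the slp genes lie on one stretch of 2L. With 10 kb on either side, drm, sob, odd, bowl, slp1 and slp2 fall within 320 kb, from 3529247 to 3849185. This stretch held 39 sites, or 122 per Mb against 43.8 on the whole of 2L, and 30 of the 74 sites described here. Of the 14 member sites among the first 1000, 7 were on it. In the 55.8 kb between drm and odd, which includes sob, there were 15 sites. Not all strong sites of the stretch belong to members. Those of rank 46, 100 and 198 have foraging (for), a kinase gene, as the gene of the nearest TSS. Outside this stretch, 17 of 27 members (63.0%) had a site within 10 kb, and 6 of 27 (22.2%) had one among the first 1000. Both shares are within 2 percentage points of those of all genes. The stretch was singled out after its values were seen.

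**Figure D4:**
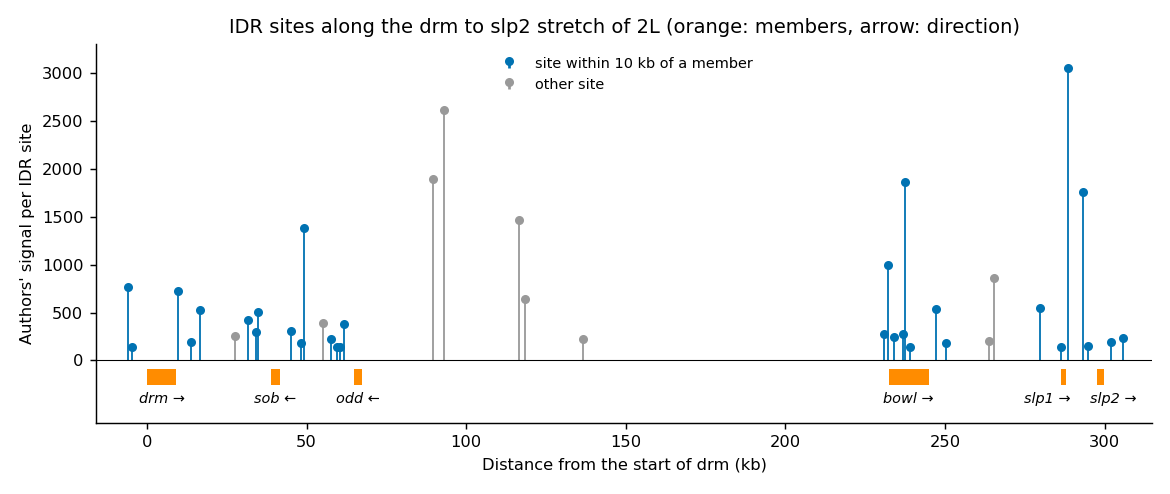
Authors' signal of each IDR site along the stretch of 2L that holds drm, sob, odd, bowl, slp1 and slp2, by distance in kb from the start of drm. The tallest line within 10 kb of a member, at signal 3045, stands between slp1 and slp2, and the tall grey lines between odd and bowl are sites nearest to the TSS of foraging (for).

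The remaining early factors had moderate sites. cad, the caudal homeodomain gene of the posterior, had 3 sites. The strongest ranked 567 (signal 834), in an intron 10061 bp from the nearest TSS of cad. Here the signal was nearly equal, at 426 in replicate 1 and 413 in replicate 3. The ranks in these lists differed, at 304 in replicate 1 and 860 in replicate 3. Its TSS neighbour is Pomp, which encodes a proteasome maturation factor and held another of the 3 sites at its promoter. D, the Sox gene Dichaete, had a site of rank 991 (signal 580), 1187 bp past its end, with signal 334 in replicate 1 and 231 in replicate 3. nub, a POU gene, had 1 site, of rank 1492, in an intron 1452 bp from a TSS. pdm2, its paralog, had none, although a site of rank 1154 lay in the 29.0 kb between them.

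The 10 genes without a site were tll, Kr, gt, hkb, prd, en, gsb, gsb-n, H15 and pdm2. tll and hkb act at the embryo's termini, Kr in its centre and gt, a bZIP gene, in an anterior and a posterior domain. All 10 had between 3 and 16 peaks of the pooled list within 10 kb, against 5 to 20 for the genes with a site. Their strongest pooled peaks ranked from 5535 (H15, signal 130) to 17915 (gt, signal 46.4), where 5354 is the last rank of the IDR list. tll came close, with a pooled peak of rank 5629 (signal 128) that had signal 51.2 in replicate 1 and 81.8 in replicate 3. At Kr the strongest pooled peak lay 108 bp from the TSS (rank 7571), with signal 60.6 in replicate 1 and 26.1 in replicate 3. The limit of 10 kb also decided some calls. The nearest IDR site was 10483 bp from the body of H15, 10848 bp from hkb, 11211 bp from en and 11222 bp from tll. Just inside, sites were counted at 9934 bp from cnc and 9839 bp from ftz.

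Own promoters carried mainly peaks outside the IDR list, as did those of genes in general. In the full pooled list, 22 of 33 members (66.7%) had a summit within 500 bp of an own TSS, against 51.3% of all protein-coding genes. In 17 of these the promoter peak was outside the IDR list, with signals from 34.8 to 99.4 and ranks from 7317 to 26445. Over all 13945 protein-coding genes, 7151 had a pooled summit at an own TSS and 2984 had an IDR site there. Most genes with a promoter peak thus had it only outside the IDR list, so this is not particular to the members. The IDR promoter sites were those of bowl, oc, cnc, slp1 and hry, with ranks from 408 to 5201. For the other 11 genes, among them tll, knrl, gt, eve, ftz and D, no pooled summit lay there.

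The replicates shared these sites as they shared the list in general. Of the 74 sites, 54 (73.0%, 95% Wilson interval 61.9 to 81.8%) were matched, at most 100 bp away, in the top 5354 peaks of replicate 1 and also of replicate 3, against 72.7% of all IDR sites. For the strongest site of each of the 23 genes this held in 22, run being the exception. These sites were picked for their strength, so this count cannot be set against the 72.7%, which covers sites of every rank. For 69 sites with a partner in each full replicate list, the Spearman correlation of the signals was 0.769 and the Pearson correlation of their log2 values 0.853. These are correlations across sites, which are not independent replicates. The IDR list is the top of the pooled list by signal, and the pooled list was called on both replicates together. Agreement therefore follows in part from how the list was made. Signal was higher in replicate 3 at 54 of the 69 sites, with a mean log2 ratio to replicate 1 of 0.47 ± 0.64 (SD over sites), against 0.65 ± 0.71 over all matched sites. The mean was 0.47 for both the 60 distal and the 9 promoter sites. Over all IDR sites it was 0.51 at distal and 0.86 at promoter sites. As 2 libraries of 1 group, the replicates do not allow a test of this.

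**Figure D5:**
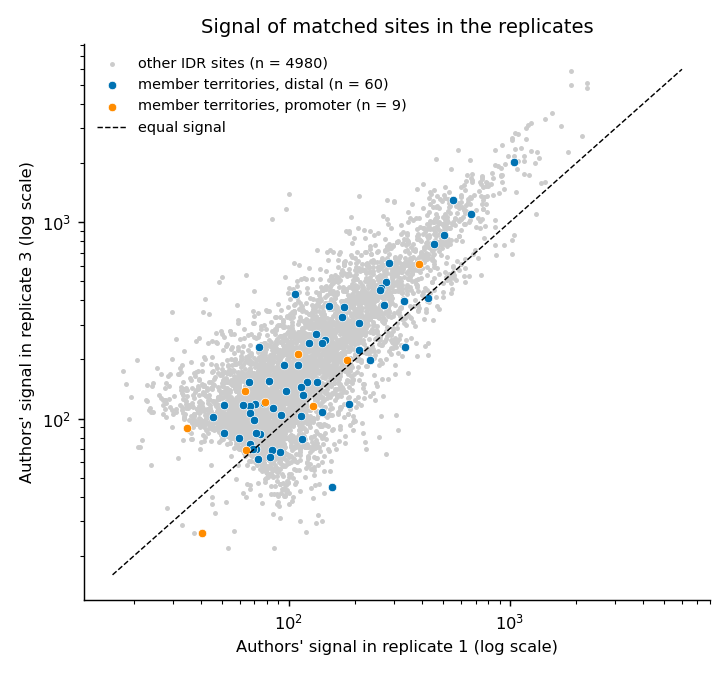
Authors' signal in replicate 1 and replicate 3, both on log axes, for all sites matched in both lists, with distal (blue, n = 60) and promoter (orange, n = 9) sites of member territories over the other IDR sites (grey). The dashed line marks equal signal, and 54 of the 69 member sites lie above it.

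Base composition and motifs at these sites were near those of the whole list. GC content within 50 bp of the summit averaged 32.5% ± 9.79 (SD, n = 74 sites), against 32.5% ± 9.26 over all IDR sites, and 45.2% in windows of the same width 350 bp away. Promoter sites near members were richer in GC than distal ones, at 39.1% ± 12.2 (n = 11) and 31.4% ± 8.94 (n = 63). Over all IDR sites the values were 31.7% and 33.1%. The promoter sites near members were also weaker, with median ranks of 3994 (members) and 3575 (other genes), against 2830 for distal sites. GC content fell with signal over the 74 sites (Spearman correlation -0.312). Whether strength accounts for the GC difference was not tested. TAATTA, searched on both strands, was found within 50 bp of 6 of 74 summits (8.11%, 95% Wilson interval 3.77 to 16.6%), in 3.38% of the flanking windows and at 10.6% of all IDR summits. TAATGA was at 13.5% of member summits (7.51 to 23.1%) and 7.86% of all. TAATCC, the motif of Bicoid and Orthodenticle, was at 1 of 74 (1.35%), in 4.05% of the flanking windows and at 3.10% of all. TTTATG, a Caudal-type motif, was at 18.9% and 14.3%, and TATAAA at 24.3% of both. TAAACA, a forkhead motif, was at 18.9% and 18.7%. CAGGTAG, bound by the early activator Zelda, was at 1 member site, the one of rank 4802 between slp1 and slp2, and at 0.374% of all. The DREF motif TATCGATA was at none of the 74, where up to 4.93% is allowed by the Wilson interval, and at 1.16% of all. GAGAG was at 12.2% and 8.61%, below the 18.9% and 14.6% of the respective flanking windows. ACAAT, a Sox motif, was at 31.1% and 32.3%. CATATG, the octamer ATGCAAAT and the Runt motif AACCACA were each at 1 member site, and at 5.10%, 2.19% and 0.971% of all. Some motifs can share letters, and a match says only that the letters are present.

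Other genes of the segmentation cascade were described by the same rules. Of 21 listed genes, 20 were matched, since nos fits 2 genes in the reference table and was left out. Among them 18 (90.0%, 95% Wilson interval 69.9 to 97.2%) had a site within 10 kb, against 64.7% of all genes, and 7 of 20 (35.0%) had one at an own TSS, against 21.4%. Their bodies had a median length of 8670 bp, against 2166 bp over all genes and 4205 bp for the members. They had a median of 4.5 other genes within 10 kb, against 1 for the members. A site among the first 1000 was held by 11 (55.0%), against 22.2%. Those of maternal and early input were bcd (rank 69), which encodes the anterior morphogen, pum (rank 195), osk (rank 270) and cic (rank 602). The cofactor genes were gro (rank 58), for the Groucho co-repressor, with Bgb and Bro sharing the site of rank 616. Among segment polarity outputs were nkd (rank 151), ptc (rank 410), hh (rank 933) and slmb (rank 986). Some of these sites lie nearer to other genes.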

How the data were processed

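Peak lists on dm6 from ChIP-seq of GFP-tagged CG15696 were used, per the labels. The authors called peaks on each replicate and on both together against 1 control alignment and derived the IDR list from these, per the notes deposited with the files. Peak caller, IDR cut-off and sequencing depth: not given in the sources used here. The precision that depth gives is therefore unknown. The deposited signal of each peak has no stated scale. All 5354 IDR sites are the top of the pooled list by signal. The summit was the start plus the peak offset.

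The 33 members and the lists were chosen with earlier results of these data known. All members were accounted for, with fuller values for those with a site among the first 1000 and for the strongest of each tier. The marking of TAAT was chosen after the windows were seen. Genes came from Ensembl release 115 and sequence from RefSeq Release 6. A site was called promoter at 500 bp or less from a protein-coding TSS. Replicate partners lay within 100 bp, and 13 motifs were searched on both strands. No test was run, since the design holds 1 group of 2 biological replicates. Assignment was checked on peaks placed at known distances. Alternatives varied the replicates, the list, the windows and the members. Python 3.11.15 with pandas 2.3.3 and scipy 1.17.1 was used.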

Additional observations from a re-analysis of the deposited data

How the results depend on the processing

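No paired analysis was possible because there is 1 group. With 1 replicate left out, 25 members had a site within 10 kb in both cases (63.1 to 65.9% of all genes). At an own TSS, 5 members had one without replicate 3 (20.8% of all genes) and 4 without replicate 1 (21.9%). The territories held 70 to 76 sites, and the promoter share was 12.9 to 14.5%. In the first 2677 ranks of the IDR list 17 members kept a site within 10 kb (46.8% of all genes), 1 had one at an own TSS (12.1% of all genes) and 33 sites remained. There the TAATTA share was 15.2%, above the 12.4% of all sites, whereas in the full list it was 8.11%, below 10.6%. With all pooled peaks all 33 members had a peak within 10 kb, as had 90.7% of all genes, 22 had one at an own TSS (51.3%), and the territories held 391. With limits of 2 and 5 kb the counts of sites were 25 and 46, and 14 and 21 members had one, against 37.2 and 50.8% of all genes. A promoter window of 200 bp gave 3 members with a site at an own TSS (over all genes, 2093 of 13945) and a promoter share of 6.76%. Without the 6 genes of the 2L stretch, an alternative chosen after seeing the data, 44 sites were left. Of the other 27 members, 3 had a site at an own TSS, where the share over all genes was 21.4%. Partners within 50 bp in both replicates were held by 58.1% of sites, and partners in the full lists by 93.2%. The cause of these shifts was not tested.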
